A study of Mus musculus with 12 samples.

Results

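The genes described here make, carry and sense bile acids in the liver. They are 10 genes taken by their symbols, Cyp7a1, Cyp7b1, Cyp8b1, Cyp27a1 and Baat for synthesis and conjugation, Slc10a1, Slco1a1 and Abcb11 for transport, and Nr1h4 and Nr0b2 for sensing and repression. All 10 were found on the array among 27670 gene names, with 13 of its 41174 probes. Their RNA was measured in the livers of adrenalectomized C57BL/6 mice aged 11 weeks, 1 animal per single-colour Agilent array. The groups were females given dexamethasone, males given dexamethasone, females given phosphate buffered saline as vehicle and males given the same vehicle, with 3 arrays in each. Dexamethasone, a synthetic glucocorticoid, was injected into the peritoneum (1 mg/kg), 6 h before the liver was removed. Females were in diestrus, and every animal, vehicle groups included, lacked its adrenal glands and with them the main source of its own glucocorticoid.

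Bile acids are made from cholesterol in hepatocytes. In the classic route CYP7A1 performs the first and rate-limiting step, and in the acidic route CYP27A1 and CYP7B1 oxidize the side chain and the ring. The end product is sensed by the nuclear receptor FXR, encoded by Nr1h4, which induces Nr0b2. Nr0b2 encodes SHP, a receptor without a DNA-binding domain that represses Cyp7a1 and Cyp8b1.

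Levels are given below as relative signals, the log2 of a probe's signal minus the log2 of that array's 75th percentile, so 0 is the signal at that percentile. A relative signal compares arrays for 1 probe and says nothing of which of several genes is more abundant. An effect is the log2 fold change in a limma fit, given ± its standard error and resting on 3 arrays per group. P-values were adjusted over all 19339 genes tested, and 0.05 was the threshold. All 13 probes were well above background on all 12 arrays, and none was saturated or an outlier there. The 75th percentile itself was 842 to 910 intensity units on the female dexamethasone arrays, 578 to 788 on the male dexamethasone arrays, 822 to 1251 on the female vehicle arrays and 821 to 883 on the male vehicle arrays. The male dexamethasone arrays were thus the dimmest, and the part of this in the results below was not tested. Each of the 3 slides carried 4 arrays. All 3 male vehicle arrays sat at position 1, and within a sex the dexamethasone arrays sat at higher positions than the vehicle arrays of the same slide, so treatment and position cannot be told apart. On each slide the females also sat at higher positions than the males, so sex and position cannot be told apart either. As a check of the treatment, the glucocorticoid receptor target Fkbp5 rose by 3.86 ± 0.43 in females (adjusted p = 0.000595) and by 4.45 ± 0.43 in males (adjusted p = 0.000184), and Tat, which encodes a liver enzyme induced by glucocorticoids, rose by 1.64 ± 0.26 in females (adjusted p = 0.00317) and by 1.91 ± 0.26 in males (adjusted p = 0.000882).

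Nr0b2 was the member with a called change within a sex. Its relative signals were -0.38, -0.42 and -0.39 in the female dexamethasone livers, against 0.30, 0.72 and 0.50 in the female vehicle livers. They were -1.19, -2.23 and -1.50 in the male dexamethasone livers, against 0.39, -0.16 and 0.83 in the male vehicle livers. In both sexes every treated liver lay below every vehicle liver, and the female dexamethasone livers differed little among themselves, with an SD of 0.02 (n = 3), where the male ones had an SD of 0.53 (n = 3). In males Nr0b2 fell by 1.99 ± 0.28 (adjusted p = 0.00119), to 0.252 times the vehicle level. The fall kept its call with slide as a block (adjusted p = 0.00604) and stood at -2.62 on slide 1 and -1.18 on slide 3, the slides that carried male arrays of both treatments. In females the log2 fold change was -0.90 ± 0.28, which did not pass the threshold (adjusted p = 0.0593), and it was -1.14 on slide 1 and -0.69 on slide 2. That female value lay close to the threshold, and it passed when only the 6 female arrays were fitted (adjusted p = 0.027). It did not pass with slide as a block (-0.93, adjusted p = 0.11) or with the replicate number as a block (adjusted p = 0.0724). Leaving out 1 array gave adjusted p-values of 0.0316 to 0.145. Averaged over both sexes Nr0b2 fell by 1.45 ± 0.20 (adjusted p = 0.00044), to 0.367 times the vehicle level. Tissue RNA holds all liver cells, so fewer cells of a type and less RNA per cell cannot be told apart here or in any result below.

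**Figure D1:**
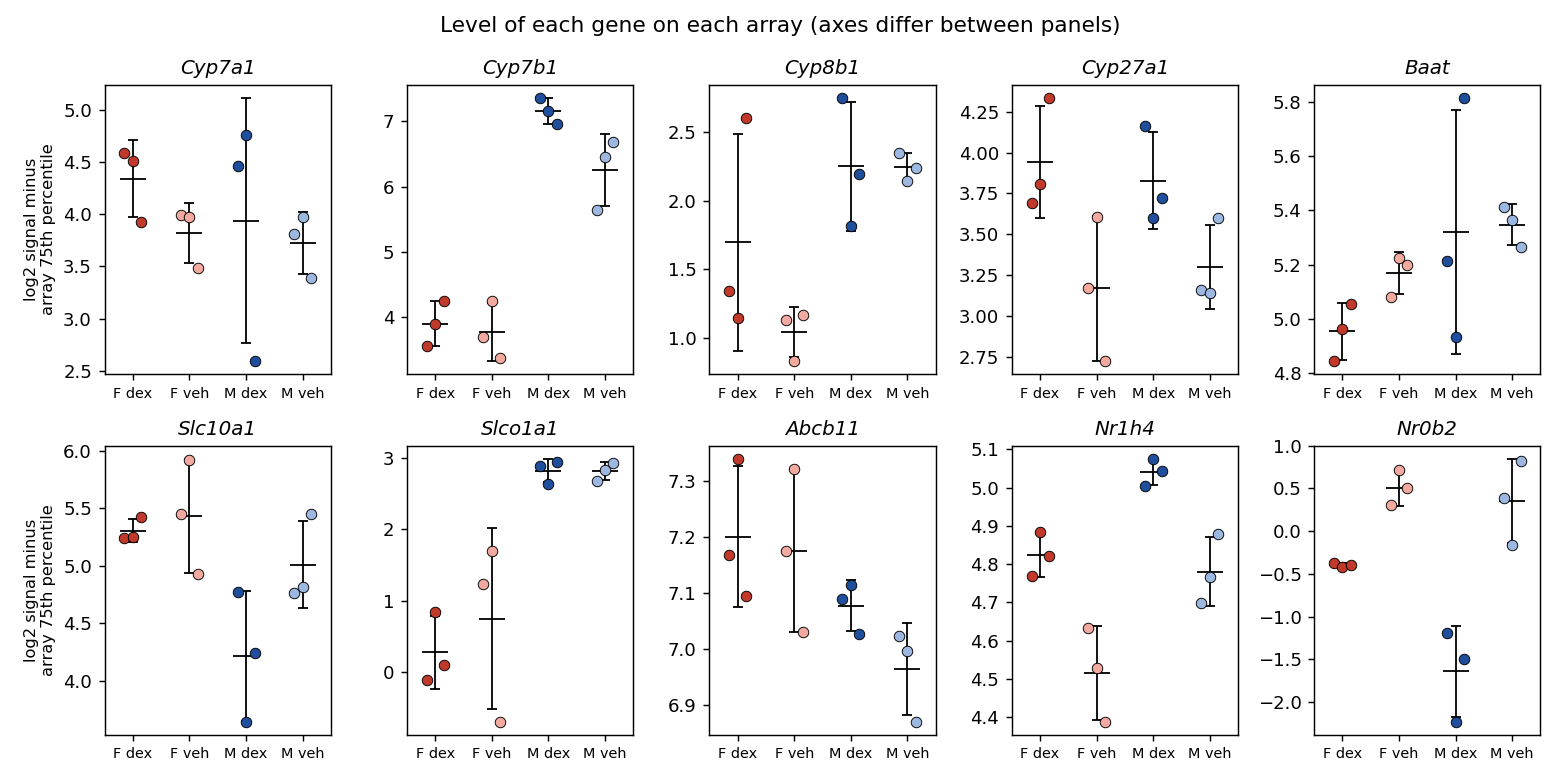
Relative signal (log2, vertical axes) of each of the 10 genes on each array, with female (F) and male (M) livers after dexamethasone (dex) left of those after vehicle (veh). Points are arrays, the horizontal mark is the group mean and the bar is ± 1 SD (n = 3). Nr0b2 averaged -0.39 in treated and 0.51 in vehicle females, and -1.64 in treated and 0.35 in vehicle males.

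The probe behind these values lies at chr4:132932212-132932271 on the plus strand of mm7, per the array design in the scanner files. It is shown because the Nr0b2 result rests on this 1 probe. The Nr0b2 promoter is shown as the 250 bases before the gene's start in RefSeq, build GRCm38.p6, chr4:133553126-133553375 on the plus strand, with capitals marking the letters TCAAGG, the core bound by NR5A2, a receptor that drives Nr0b2.

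Nr0b2 probe: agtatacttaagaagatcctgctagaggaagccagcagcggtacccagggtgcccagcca
Nr0b2 promoter: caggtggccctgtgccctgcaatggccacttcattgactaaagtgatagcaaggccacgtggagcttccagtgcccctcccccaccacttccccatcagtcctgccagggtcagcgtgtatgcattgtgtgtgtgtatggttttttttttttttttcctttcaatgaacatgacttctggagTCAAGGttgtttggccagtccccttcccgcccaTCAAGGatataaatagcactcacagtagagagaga

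TCAAGG was found on the gene's strand at 68 and 35 bases before the start, and it was added to the search after the sequences had been seen. On either strand, 14.4% of 32851 mouse promoters of 300 bases hold it, so a match by itself is common. The other letters searched on both strands were AGAACA, the core of a glucocorticoid receptor site, found in 19.0% of promoters, AGGTCA, the core bound by FXR and related receptors, found in 16.3%, and TCAAGGTCA, an extended NR5A2 site that contains both AGGTCA and TCAAGG, found in 0.423%. None of these 3, nor the full glucocorticoid response element (in 3 of the 32851 promoters), was in the Nr0b2 window. NR5A2 itself, encoded by Nr5a2, had a log2 fold change of 0.13 ± 0.10 averaged over both sexes (adjusted p = 0.338, 95% interval -0.08 to 0.35).

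Nr1h4 encodes FXR, the receptor that induces Nr0b2 when bile acids rise. The livers of female dexamethasone mice had relative signals of 4.77, 4.88 and 4.82, against 4.63, 4.53 and 4.39 in the female vehicle livers. They were 5.005, 5.07 and 5.04 in the male dexamethasone livers, against 4.70, 4.77 and 4.88 in the male vehicle livers. In both sexes all 3 treated livers lay above all 3 vehicle livers, by a small margin. Its log2 fold change was 0.31 ± 0.11 in females (adjusted p = 0.089) and 0.26 ± 0.11 in males (adjusted p = 0.116), neither past the threshold. Averaged over both sexes Nr1h4 rose by 0.28 ± 0.08 (adjusted p = 0.0163), to 1.22 times the vehicle level, where the median over all genes was 0.02. With slide as a block the averaged value kept its call (adjusted p = 0.0299), and it lost it under quantile normalization, at 0.19 (adjusted p = 0.0821), and under normexp background correction, at 0.07 (adjusted p = 0.719). Normexp, a model-based subtraction of each spot's local background, moved the median over all genes to 0.25 in this comparison. Within slides the value in females was 0.36 on slide 1 and 0.16 on slide 2, and in males 0.38 on slide 1 and 0.26 on slide 3. The rise in the receptor's RNA thus stood beside a fall in the RNA of its target Nr0b2, and a link between them was not tested.

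Of the synthesis enzymes, Cyp27a1 rose with treatment when both sexes were averaged. Cyp27a1 encodes the mitochondrial sterol 27-hydroxylase that starts the acidic route and also oxidizes the side chain in the classic one. Signals relative to the array were 3.69, 3.80 and 4.33 in the female dexamethasone livers, against 3.17, 3.61 and 2.73 in the female vehicle livers. Males had 4.16, 3.60 and 3.72 in the male dexamethasone livers, against 3.16, 3.14 and 3.60 in the male vehicle livers. Treated livers were above vehicle livers in both sexes, barely so in males, where the lowest treated and the highest vehicle liver nearly touched. That gave a log2 fold change of 0.77 ± 0.26 in females (adjusted p = 0.0742) and 0.53 ± 0.26 in males (adjusted p = 0.173). Averaged over both sexes Cyp27a1 rose by 0.65 ± 0.18 (adjusted p = 0.0189), to 1.57 times the vehicle level. The averaged call held with slide as a block (adjusted p = 0.0291) and was lost under normexp background correction, at 0.46 (adjusted p = 0.115). Within slides the value in females was 0.20 on slide 1 and 0.84 on slide 2, and in males 0.44 on slide 1 and 0.80 on slide 3.

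Cyp7a1, the rate-limiting enzyme and the main gene that SHP represses, was not called in either sex. For Cyp7a1 the relative signals were 4.59, 4.51 and 3.92 in the female dexamethasone livers, against 4.00, 3.97 and 3.49 in the female vehicle livers. In males they were 4.46, 4.76 and 2.59 in the male dexamethasone livers, against 3.81, 3.97 and 3.39 in the male vehicle livers. Male dexamethasone 3 held the lowest level of all 12 livers, while the other 2 treated males lay above every vehicle male. The log2 fold change was 0.52 ± 0.47 in females (adjusted p = 0.523), 0.21 ± 0.47 in males (adjusted p = 0.798) and 0.37 ± 0.33 averaged over both sexes (adjusted p = 0.431), with a 95% interval of the average of -0.36 to 1.10. Without male dexamethasone 3 the male value was 0.89 (adjusted p = 0.0442) and the average 0.71 (adjusted p = 0.0135), so this 1 liver decides whether Cyp7a1 is called.

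A second Cyp7a1 probe, from another stretch of the transcript, gave the level of that liver a further time. It is shown because its 60 bases are spread over 607 bases of chromosome 4, as in a probe across a splice junction, at chr4:6195632-6196238, on the minus strand of mm7, per the array design.

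Cyp7a1 second probe: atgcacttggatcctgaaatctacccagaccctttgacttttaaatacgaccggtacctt

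On this probe the relative signals were 1.54, 1.42 and 0.99 in the female dexamethasone livers, against 0.74, 0.97 and 0.59 in the female vehicle livers. Males gave 1.34, 1.38 and -0.53 in the male dexamethasone livers, against 0.26, 0.16 and -0.09 in the male vehicle livers. Male dexamethasone 3 was again the lowest of the 12. The log2 fold change on the second probe was 0.55 ± 0.42 in females (adjusted p = 0.43, over all probes), 0.62 ± 0.42 in males (adjusted p = 0.326) and 0.58 ± 0.30 averaged (adjusted p = 0.152). All 3 treated females lay above all 3 vehicle females on the second probe, whereas on the brighter one female dexamethasone 3 lay within the vehicle range.

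**Figure D2:**
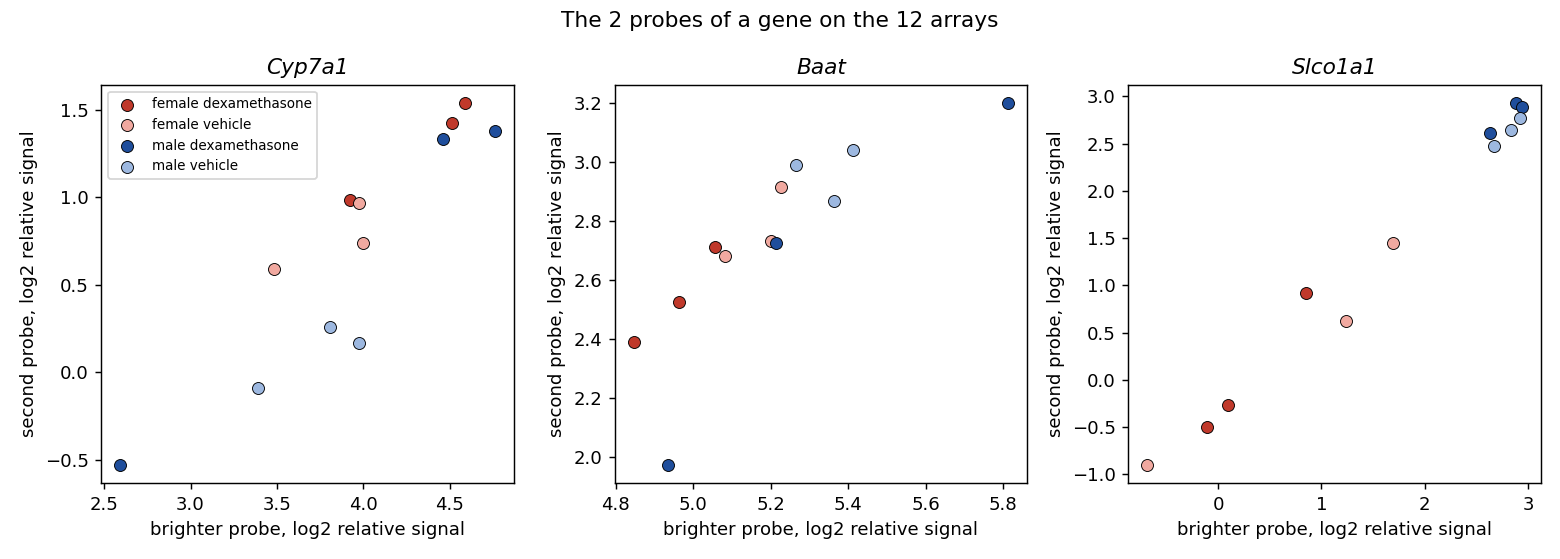
Relative signals (log2) of the brighter probe (horizontal) and the second probe (vertical) of Cyp7a1, Baat and Slco1a1 on the 12 arrays, coloured by group. Points are arrays. The male dexamethasone liver at 2.59 on the brighter Cyp7a1 probe sits at -0.53 on the second one, apart from the other 11.

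Cyp7b1, the oxysterol 7-alpha-hydroxylase of the acidic route and a male-biased liver gene, differed mainly by sex. Its relative signals were 3.55, 3.90 and 4.25 in the female dexamethasone livers, against 7.35, 7.16 and 6.96 in the male dexamethasone livers. Vehicle livers had 3.69, 4.24 and 3.37 in females, against 5.64, 6.46 and 6.68 in males. No female liver reached any male liver under either treatment. Under dexamethasone Cyp7b1 was lower in females, at -3.26 ± 0.30 (adjusted p = 0.000265), or 0.104 times the male level. Under vehicle it was lower in females, at -2.49 ± 0.30 (adjusted p = 0.00172), or 0.178 times the male level, and with slide as a block the adjusted p was 0.00555 under dexamethasone and 0.00545 under vehicle. On slide 1, the slide with treated livers of both sexes, the difference was -3.27, and under vehicle it was -1.39, -2.99 and -3.09 on slides 1, 2 and 3. With treatment the log2 fold change was 0.13 ± 0.30 in females (adjusted p = 0.832) and 0.90 ± 0.30 in males (adjusted p = 0.054), where all 3 treated males lay above all 3 vehicle males. The male value lay at the threshold and passed it without male vehicle 3, at 1.11 (adjusted p = 0.0428), and also in the fits without female vehicle 2 (adjusted p = 0.0405) and without female dexamethasone 3 (adjusted p = 0.0493). Of the processing alternatives, it passed with only probes well above background on all 12 arrays (adjusted p = 0.0469) and with array weights (adjusted p = 0.0449). It also passed with normexp under a capped local background (adjusted p = 0.0443). In the others it did not pass, among them slide as a block, at 0.97 (adjusted p = 0.0879), and the replicate number as a block (adjusted p = 0.0671). Leaving out 1 array gave 0.59 to 1.11, with adjusted p-values of 0.0405 to 0.197.

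Cyp8b1, the sterol 12-alpha-hydroxylase that sets the share of cholic acid, was not called in any comparison. For Cyp8b1 the relative signals were 1.34, 1.15 and 2.60 in the female dexamethasone livers, against 2.74, 1.81 and 2.19 in the male dexamethasone livers. Under vehicle they were 1.13, 0.83 and 1.17 in the female vehicle livers, against 2.35, 2.14 and 2.24 in the male vehicle livers. Under vehicle every female was below every male, at -1.20 ± 0.35 (adjusted p = 0.132), and under dexamethasone the sexes overlapped, at -0.55 ± 0.35 (adjusted p = 0.372). Female dexamethasone 3 was the treated female within the male range. Without it the difference under dexamethasone was -1.005 (adjusted p = 0.0398), and the vehicle difference, unmoved in size, passed at adjusted p = 0.0217. With treatment the log2 fold change was 0.65 ± 0.35 in females (adjusted p = 0.252) and 0.01 ± 0.35 in males (adjusted p = 0.992).

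Baat, which joins bile acids to taurine and glycine, stayed in a narrow band of 4.85 to 5.81 over the 12 livers. The lowest and highest were 4.85 and 5.06 in female dexamethasone livers, 4.93 and 5.81 in male dexamethasone livers, 5.08 and 5.23 in female vehicle livers and 5.27 and 5.41 in male vehicle livers. All 3 treated females lay below all 3 vehicle females, and the treated males fell on both sides of the vehicle males. For Baat the log2 fold change was -0.21 ± 0.19 in females (adjusted p = 0.52) and -0.03 ± 0.19 in males (adjusted p = 0.943). On its second probe it was -0.23 ± 0.25 in females (adjusted p = 0.594) and -0.33 ± 0.25 in males (adjusted p = 0.381).

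Among the transporters, Slc10a1 encodes NTCP, which takes conjugated bile acids up from blood with sodium. Its relative signals were 5.24, 5.25 and 5.42 in the female dexamethasone livers, against 5.45, 5.92 and 4.93 in the female vehicle livers. They were 4.77, 3.64 and 4.24 in the male dexamethasone livers, against 4.77, 4.82 and 5.45 in the male vehicle livers. Male dexamethasone 2 and 3 held the lowest levels, male dexamethasone 1 lay level with the lowest vehicle male, and the treated females lay inside the range of the vehicle females. The log2 fold change was -0.13 ± 0.31 in females (adjusted p = 0.843) and -0.79 ± 0.31 in males (adjusted p = 0.0962). Without male dexamethasone 1, the treated male level with the vehicle males, the male value was -1.07 (adjusted p = 0.0416). Under dexamethasone females were above males by 1.09 ± 0.31 without passing the threshold (adjusted p = 0.0703), and under vehicle the difference was 0.42 ± 0.31 (adjusted p = 0.609). Without male dexamethasone 1 the difference under dexamethasone was 1.37 (adjusted p = 0.0493).

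Slco1a1 encodes OATP1A1, a sodium-independent uptake carrier with male-biased expression in mouse liver. Its relative signals were -0.11, 0.85 and 0.10 in the female dexamethasone livers, against 2.88, 2.63 and 2.94 in the male dexamethasone livers. With vehicle they were 1.24, 1.70 and -0.69 in the female vehicle livers, against 2.67, 2.83 and 2.92 in the male vehicle livers. Males kept to a narrow range under both treatments, and all 6 females lay below all 6 males. Under dexamethasone Slco1a1 was lower in females, at -2.54 ± 0.50 (adjusted p = 0.0161), or 0.172 times the male level. Under vehicle the difference was -2.06 ± 0.50, short of the threshold (adjusted p = 0.069). With slide as a block the difference under dexamethasone was -2.85 and lost its call (adjusted p = 0.0605), as it did under normexp background correction (adjusted p = 0.157), without female dexamethasone 1 (adjusted p = 0.0674) and without male dexamethasone 1 (adjusted p = 0.053). It was -1.78 on slide 1 under dexamethasone and -0.97, -1.69 and -3.52 on slides 1, 2 and 3 under vehicle. Its second probe gave -2.76 ± 0.51 under dexamethasone (adjusted p = 0.0133) and -2.24 ± 0.51 under vehicle (adjusted p = 0.0604). With treatment the log2 fold change was -0.47 ± 0.50 in females (adjusted p = 0.598) and 0.01 ± 0.50 in males (adjusted p = 0.992). Female vehicle 3 was the lowest liver of all 12, and without it the female value was -1.19 (adjusted p = 0.0271), the average over both sexes -0.59 (adjusted p = 0.0334) and the sex difference under vehicle -1.34 (adjusted p = 0.0471). Without female vehicle 2 that sex difference was -2.53 (adjusted p = 0.0314).

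Abcb11 encodes BSEP, the pump that exports bile salts into bile and a direct target of FXR. It had the narrowest range of the transporters. The lowest and highest relative signals were 7.09 and 7.34 in female dexamethasone livers, 7.03 and 7.11 in male dexamethasone livers, 7.03 and 7.32 in female vehicle livers and 6.87 and 7.02 in male vehicle livers. Treatment gave a log2 fold change of 0.03 ± 0.12 in females (adjusted p = 0.922, 95% interval -0.24 to 0.29) and 0.11 ± 0.12 in males (adjusted p = 0.556, 95% interval -0.15 to 0.38). Quantile normalization and normexp background correction turned both values negative, still without a call. Nr0b2 and Abcb11 are both FXR targets, and Abcb11 did not pass the test in males, where Nr0b2 fell. The part of FXR in either value was not tested.

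**Figure D3:**
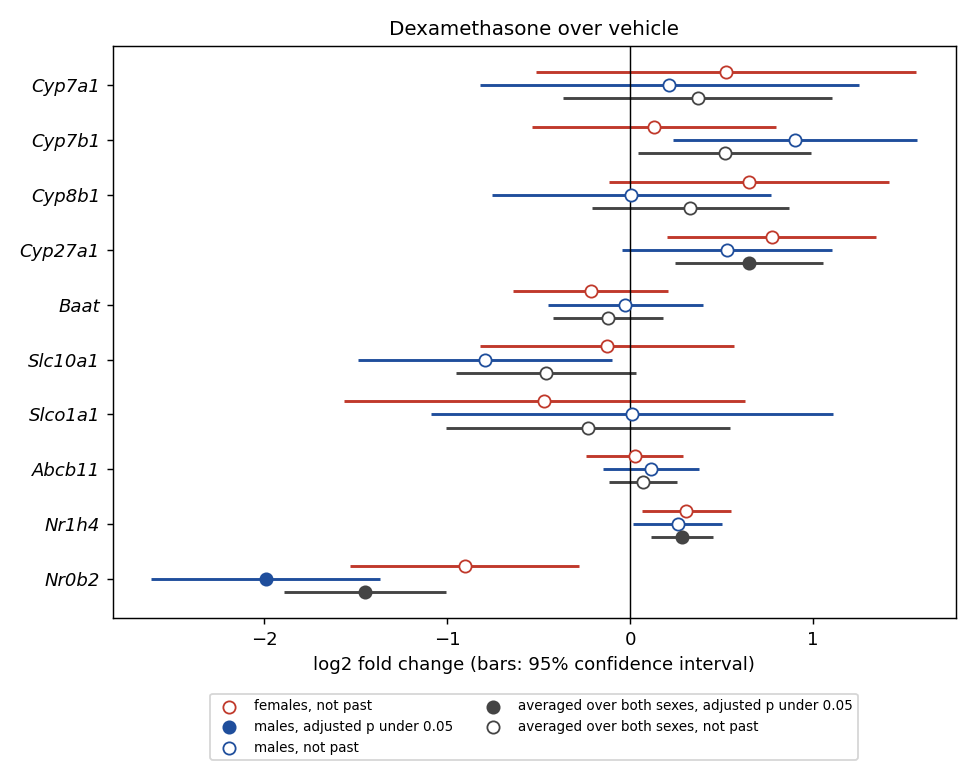
Log2 fold change of dexamethasone over vehicle (horizontal axis, bars are 95% confidence intervals) for the 10 genes in females, males and averaged over both sexes (n = 3 per group). Filled points passed an adjusted p of 0.05. Nr0b2 is filled in males (-1.99) and on average (-1.45), Cyp27a1 (0.65) and Nr1h4 (0.28) on average.

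Promoters of the members were read from the same RefSeq table, which held 8 for 7 of the 10 genes, with Cyp7a1, Cyp7b1 and Baat not in it. The 250 bases before the start of Nr1h4 (chr10:89506659-89506908, minus strand, GRCm38.p6) and Slco1a1 (chr6:141946963-141947212, minus strand) are shown because Nr1h4 moved with treatment and Slco1a1 differed by sex. Capitals mark AGGTCA read on either strand.

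Nr1h4 promoter: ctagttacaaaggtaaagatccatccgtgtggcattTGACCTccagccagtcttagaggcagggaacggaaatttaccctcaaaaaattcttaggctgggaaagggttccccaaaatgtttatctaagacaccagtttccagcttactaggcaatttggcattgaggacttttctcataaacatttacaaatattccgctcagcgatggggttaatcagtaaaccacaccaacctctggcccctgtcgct
Slco1a1 promoter: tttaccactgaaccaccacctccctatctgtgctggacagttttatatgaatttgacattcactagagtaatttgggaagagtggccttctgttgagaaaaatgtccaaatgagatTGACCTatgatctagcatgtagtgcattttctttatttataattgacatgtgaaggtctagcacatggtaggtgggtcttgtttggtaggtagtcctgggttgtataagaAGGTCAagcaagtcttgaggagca

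Nr1h4 held AGGTCA on the opposite strand at 214 bases before the start. Slco1a1 held it on the opposite strand at 134 bases and on its own strand at 24 bases before the start. Slc10a1 held it at 87 bases before 1 of its 2 starts, and Abcb11 at 56 bases, beside AGAACA at 34 bases. Cyp8b1 and Cyp27a1 held none of the letters searched. The members that changed with treatment, Nr0b2, Nr1h4 and Cyp27a1, had none of these motifs in common in this window.

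Counted over the members, 0 of 10 rose and 0 fell in females, where 6.79% of all genes tested rose and 6.88% fell. At an unadjusted limma p under 0.05 the female counts were 2 higher and 1 lower. In males 0 of 10 rose and 1 fell, Nr0b2, where 10.4% of all genes rose and 12.1% fell, and at an unadjusted p under 0.05 the male counts were 2 higher and 2 lower. Averaged over both sexes 2 of 10 rose, Nr1h4 and Cyp27a1, and 1 fell, Nr0b2, where 16.6% of all genes rose and 17.4% fell. These shares are near the background of all genes, so the count is no result about the list. Its median log2 fold change was 0.08 in females, 0.06 in males and 0.18 on average, against 0.02, 0.01 and 0.02 over all genes. The group means compared in females and in males share no arrays, and the average draws on both. All 12 arrays share an estimate of spread, so the calls in the sexes are not independent.

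The female effect minus the male effect was not past the threshold for any of the 10 members, with 0 higher and 0 lower, where 0% of all genes were higher and 0.00517% lower, and at an unadjusted limma p under 0.05 the counts were 1 higher and 0 lower. Nr0b2 came nearest, at 1.09 ± 0.40 (unadjusted p = 0.0207, adjusted p = 0.843), which means a deeper fall in males by size and no call. Cyp7b1 had -0.77 ± 0.43 and Slc10a1 had 0.67 ± 0.44, each at adjusted p = 1. A treatment effect called in males and not in females is therefore not shown to differ between the sexes.

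Under dexamethasone 1 of 10 members was higher in females, Nr0b2, and 2 were lower, Cyp7b1 and Slco1a1, where 3.27% of all genes were higher and 2.53% lower. Under vehicle 0 were higher and 1 was lower, Cyp7b1, where 0.657% of all genes were higher and 1.31% lower, and at an unadjusted limma p under 0.05 the counts were 0 higher and 4 lower. Nr0b2 was higher in females by 1.24 ± 0.28 under dexamethasone (adjusted p = 0.0313), every treated female lying above every treated male, while under vehicle the sexes overlapped, at 0.16 ± 0.28 (adjusted p = 0.866). That Nr0b2 call was lost with slide as a block (1.19, adjusted p = 0.19), under normexp background correction (0.93, adjusted p = 0.463), when only the 6 dexamethasone arrays were fitted (adjusted p = 0.0692) and without any 1 of 5 treated livers (adjusted p = 0.057 to 0.0945); without male dexamethasone 1 it held. On slide 1 the difference was 1.81. The order of the Nr0b2 group means from low to high was male dexamethasone, female dexamethasone, male vehicle and female vehicle, and the last neighbours did not differ beyond their spread.

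**Figure D4:**
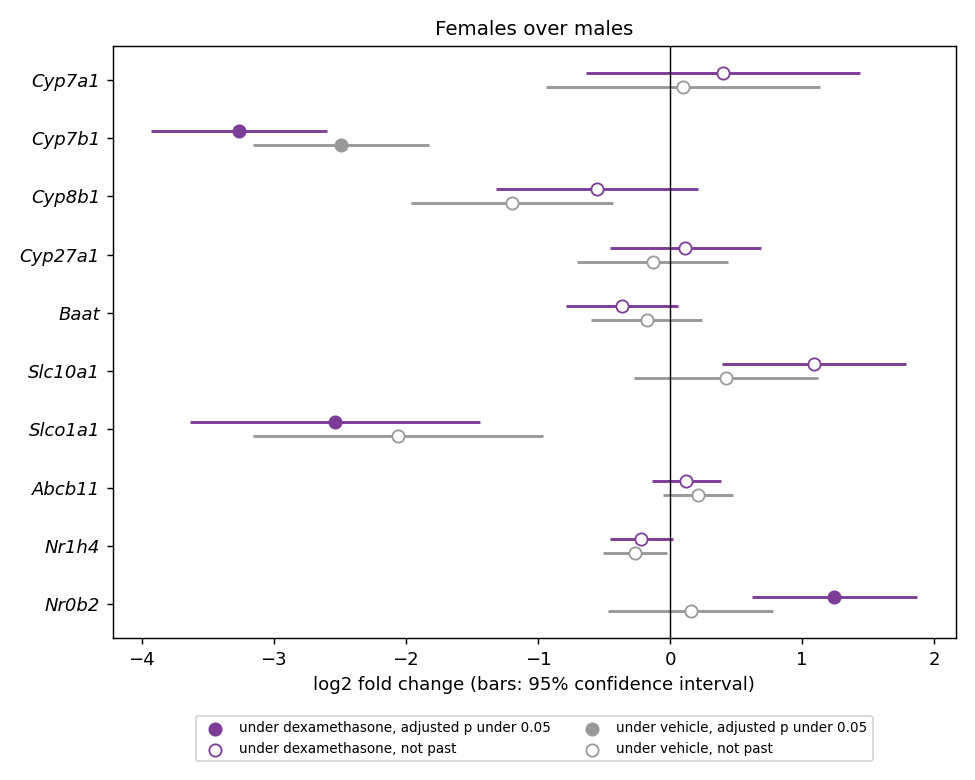
Log2 fold change of females over males (horizontal axis, bars are 95% confidence intervals) for the 10 genes under dexamethasone and under vehicle (n = 3 per group). Filled points passed an adjusted p of 0.05. Cyp7b1 is filled under both treatments (-3.26 and -2.49), and Slco1a1 (-2.54) and Nr0b2 (1.24) under dexamethasone.

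A wider list of 52 other bile acid genes, 50 of them tested, held 10 that rose and 14 that fell averaged over both sexes, where 16.6% of all genes rose and 17.4% fell, with a median of -0.05 against 0.02 over all genes. In females 4 rose and 4 fell, where 6.79% and 6.88% of all genes did, and in males 7 rose and 11 fell, where 10.4% and 12.1% of all genes did. Without male dexamethasone 2 the male calls came to 10 and without male vehicle 1 to 11, in place of 18. Of 19 regulators, 4 rose and 6 fell on average. The 4 include Vdr, which passed the detection filter only through the dexamethasone groups. Of 19 other synthesis enzymes 5 rose and 3 fell, of 4 uptake genes 0 rose and 2 fell, and of 8 export genes 1 rose and 3 fell.

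Among the regulators, Ppargc1a, a coactivator that raises Cyp7a1 in fasting, rose by 2.00 ± 0.46 in females (adjusted p = 0.0174) and by 1.56 ± 0.46 in males (adjusted p = 0.0332). Its relative signals were 1.67, 1.84 and 3.05 in the female dexamethasone livers and 1.64, 2.03 and 0.27 in the male dexamethasone livers, against 0.30, -0.10 and 0.35 in the female vehicle livers and -0.11, -0.66 and 0.02 in the male vehicle livers. Male dexamethasone 3, the liver lowest in Cyp7a1, was also the treated liver lowest in Ppargc1a. The treated females went the other way. Female dexamethasone 3 was the highest of them in Ppargc1a (3.05) and the lowest in Cyp7a1 (3.92, against 4.59 and 4.51). A link between the levels of these genes was not tested. Hnf4a, named after its value was seen, encodes a hepatocyte factor that activates Cyp7a1 and Cyp8b1, and it rose by 1.02 ± 0.13 in females (adjusted p = 0.0014) and by 0.87 ± 0.13 in males (adjusted p = 0.0017). Dbp, a clock output factor that activates Cyp7a1, fell by 3.34 ± 0.26 in females (adjusted p = 0.000114) and by 3.70 ± 0.26 in males (adjusted p = 4.38e-05). Nr1d1, the clock repressor REV-ERB alpha, fell by 1.25 ± 0.36 in males (adjusted p = 0.0322) and had -1.16 ± 0.36 in females (adjusted p = 0.0578).

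The gut signal FGF15 reaches hepatocytes through FGFR4 and its coreceptor beta-klotho, encoded by Klb, and lowers Cyp7a1. Fgfr4 fell by 0.85 ± 0.19 in males (adjusted p = 0.00924), had -0.55 ± 0.19 in females (adjusted p = 0.0772) and fell by 0.70 ± 0.13 on average (adjusted p = 0.00244). Klb had -0.07 ± 0.15 on average (adjusted p = 0.743, 95% interval -0.40 to 0.25). S1pr2, a receptor for conjugated bile acids, fell by 1.505 ± 0.37 in males (adjusted p = 0.015) and had -0.84 ± 0.37 in females (adjusted p = 0.164). Vdr, a nuclear receptor for vitamin D and lithocholic acid, was dim, being well above background on 3, 3, 0 and 2 arrays of the female dexamethasone, male dexamethasone, female vehicle and male vehicle groups. It was at least 3.06-fold higher in treated than in vehicle females, a bound set against the lowest signal well above background (adjusted p = 0.112). Its relative signals were -5.83, -6.33 and -2.37 in the female dexamethasone livers, and without female dexamethasone 3, the highest, the bound was 1.30-fold. Vdr is counted among the regulators that rose on average, but it passed the detection filter only through the dexamethasone groups, where it was brighter. Its place in that count is therefore not a measured rise. No averaged fold is given for it because its vehicle level was not measured in females.

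Of the other enzymes and carriers, Cyp39a1, the 7-alpha-hydroxylase for 24-hydroxycholesterol, rose by 1.76 ± 0.34 in females (adjusted p = 0.00854) and by 1.51 ± 0.34 in males (adjusted p = 0.0108). It was also higher in females than in males, by 1.98 ± 0.34 under dexamethasone (adjusted p = 0.00925) and by 1.72 ± 0.34 under vehicle (adjusted p = 0.0298), the opposite direction to Cyp7b1. Acnat1, an acyltransferase of peroxisomes, fell by 1.72 ± 0.34 in males (adjusted p = 0.00523) and had -1.05 ± 0.34 in females (adjusted p = 0.0629). Slc51b, a subunit of the basolateral exporter OST, fell by 1.79 ± 0.52 in females (adjusted p = 0.0449), had -1.30 ± 0.52 in males (adjusted p = 0.0987) and fell by 1.54 ± 0.37 on average (adjusted p = 0.00829). Slc51b is another FXR target, and like Nr0b2 it fell on average. Abcb11, also an FXR target, did not, at 0.07 ± 0.08 (adjusted p = 0.572). The slight averaged rise of Nr1h4 depended on the normalization, as given above. FXR activity was not measured, and its part in the values of these targets was not tested. Slc51b was lower in males, averaging -5.30 under dexamethasone and -4.01 under vehicle, against -3.18 and -1.39 in females. Slco1a4, named after its value was seen, is an uptake carrier related to Slco1a1 and ran the other way by sex, being higher in females by 2.28 ± 0.39 under dexamethasone (adjusted p = 0.0087) and by 2.78 ± 0.39 under vehicle (adjusted p = 0.00435).

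**Figure D5:**
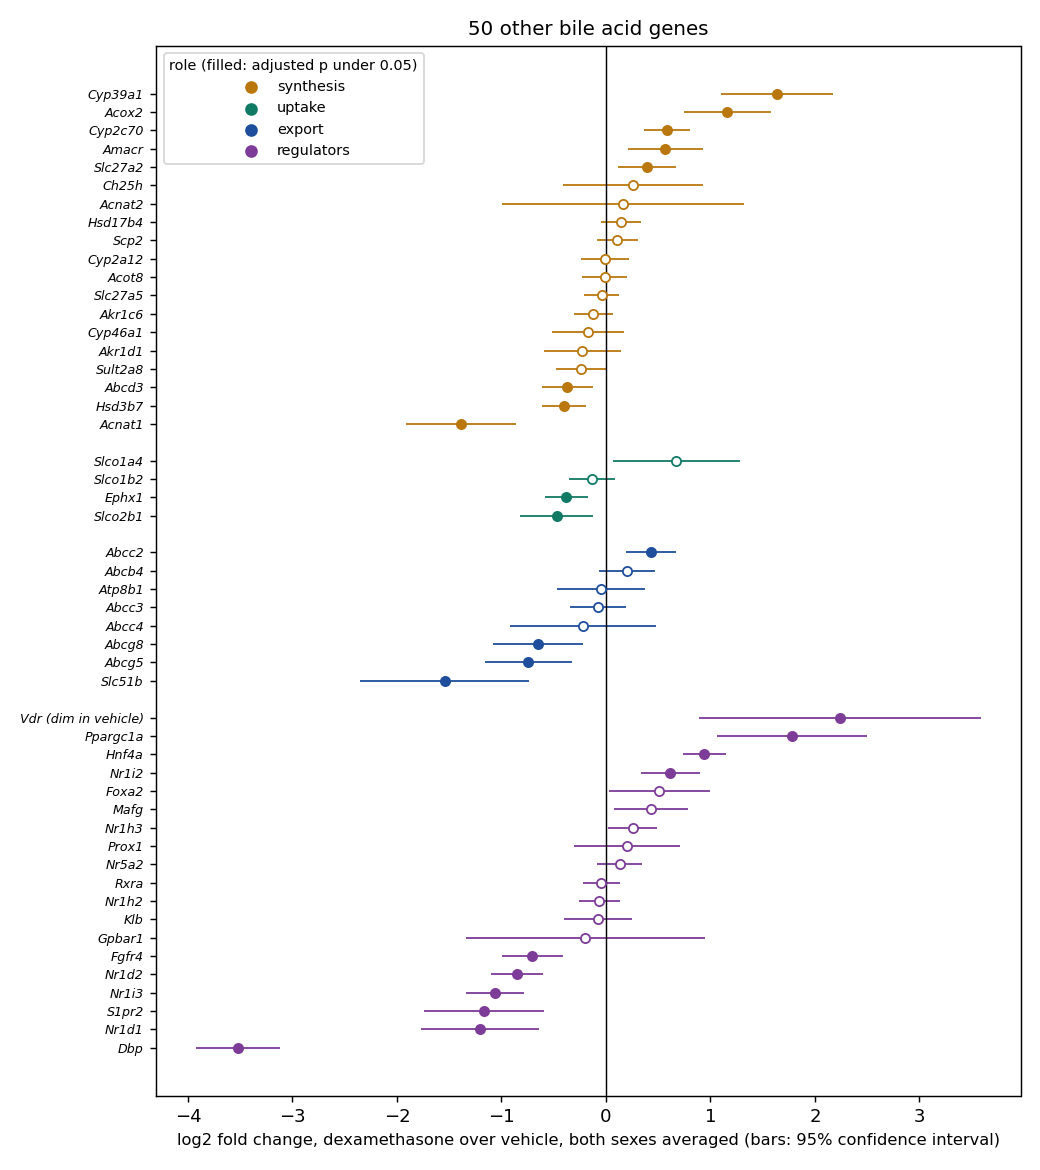
Log2 fold change of dexamethasone over vehicle, averaged over both sexes (horizontal axis, bars are 95% confidence intervals), for 50 other bile acid genes by role. Filled points passed an adjusted p of 0.05. Filled points lie on both sides of 0 in the synthesis, export and regulator groups, with Dbp lowest at -3.52. The position of Vdr rests on vehicle signals that were not well above background in females, so it has no place in the order.

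Between the sexes, 6 of these 50 genes were higher and 3 lower in females under dexamethasone, where 3.27% and 2.53% of all genes were. Under vehicle 4 were higher and 1 lower, where 0.657% and 1.31% of all genes were. The 9 calls under dexamethasone came to 4 without male dexamethasone 2, without female dexamethasone 1 or without female dexamethasone 2. The 5 calls under vehicle came to 1 to 3 when any 1 vehicle liver was left out. In limma 0 of the 50 passed the test of the female minus the male effect, with 0 higher and 1 lower at an unadjusted p under 0.05. That 1, named after its value was seen, was Cyp2c70, which makes the muricholic acids of mice, at -1.13 ± 0.20 (adjusted p = 0.282). Cyp2c70 had 0.02 ± 0.14 in females (adjusted p = 0.949) and rose by 1.15 ± 0.14 in males (adjusted p = 0.000569).

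Over the 12 arrays, the genes whose relative signals ran close to Nr0b2 included Rundc3b (Pearson r = 0.966) and Tspan2 (r = 0.964). The 3 closest to Cyp7a1 were Plekhg3 (r = 0.830), Agfg2 (r = 0.827) and Sh3bp5 (r = 0.796). These are descriptions over arrays that fall into 4 groups, chosen for high values among all genes tested, and carry no test. Tspan2 averaged -2.00 ± 0.13 in female dexamethasone livers and -2.79 ± 0.19 in male dexamethasone livers, against -1.06 ± 0.19 in female vehicle livers and -1.36 ± 0.33 in male vehicle livers (SD, n = 3 each), the same order of treated and vehicle groups as Nr0b2.

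Some markers of cell types other than hepatocytes passed the threshold with treatment. In females these were only endothelial and ileal ones. Signals were summed over each list as multiples of the array's 75th percentile. Of all genes tested, 10.4% rose and 12.1% fell in males, and 6.79% rose and 6.88% fell in females. The lists were short, so counts near these shares are no result about a cell type. In males the 6 stellate cell markers summed to 33.1 to 33.9 under dexamethasone and 37.1 to 43.0 under vehicle. In females they summed to 46.9 to 52.9 under dexamethasone and 41.8 to 47.5 under vehicle. Of the 6, 3 were called lower in males and 0 in females. A sum gives most weight to bright markers. Over the 6 the median log2 fold change was -0.72 in males and -0.08 in females. In females Dcn had 0.35, while the other markers were below 0, down to -0.87 for Lrat. In males the 6 Kupffer cell markers summed to 35.9 to 48.5 under dexamethasone and 51.5 to 86.9 under vehicle. In females they summed to 53.5 to 104.9 under dexamethasone and 82.9 to 125.9 under vehicle. Of the 6, 1 was called lower in males and 0 in females. On average 2 were called lower, where 17.4% of all genes fell. All 6 had values below 0 in both sexes, with medians of -0.72 in males and -0.28 in females. The 4 hepatocyte markers tested of 6 listed summed to 1103 to 1230 in male dexamethasone livers against 844.1 to 883.3 in male vehicle livers, and to 933.2 to 992.9 in female dexamethasone livers against 787.4 to 885.7 in female vehicle livers. The 4 did not move as 1: Alb rose by 0.40 ± 0.10 in males (adjusted p = 0.0189) and had 0.16 ± 0.10 in females (adjusted p = 0.363), while Apoa1 rose by 0.70 ± 0.19 in males (adjusted p = 0.0245) and by 0.64 ± 0.19 in females (adjusted p = 0.0486). Ttr had -0.39 in males and -0.59 in females and fell by 0.49 ± 0.14 on average (adjusted p = 0.0181), and Apob had 0.17 in males and -0.30 in females, neither past the threshold. All 4 were well above background on all 12 arrays. The 5 cholangiocyte markers tested of 6 summed to 7.65 to 47.5 in male dexamethasone livers and 12.4 to 36.1 in male vehicle livers, and to 8.52 to 17.7 in female dexamethasone livers and 15.1 to 19.2 in female vehicle livers, with overlap in both sexes. Of these, Sox9 rose by 0.95 ± 0.28 in males (adjusted p = 0.0331) and had 0.73 ± 0.28 in females (adjusted p = 0.114). The 6 endothelial markers summed to 18.1 to 21.1 in male dexamethasone livers and 19.7 to 25.9 in male vehicle livers, and to 20.7 to 37.1 in female dexamethasone livers and 22.8 to 39.5 in female vehicle livers, with overlap in both sexes. Of the endothelial markers 1 rose and 2 fell in males, and 1 rose and 1 fell in females. Lyve1 rose by 1.89 ± 0.48 in males (adjusted p = 0.0171) and by 1.94 ± 0.48 in females (adjusted p = 0.023). Clec4g fell by 1.09 ± 0.23 in males (adjusted p = 0.00811) and by 0.79 ± 0.23 in females (adjusted p = 0.0477), and Kdr fell by 1.22 ± 0.30 in males (adjusted p = 0.0162) and had -0.83 ± 0.30 in females (adjusted p = 0.0974). Of the 6 ileal enterocyte markers 3 were tested, Fabp6 was well above background on 0 arrays and Fgf15 on 1, and the sums were 23.9 to 40.2 in female dexamethasone livers and 25.2 to 31.1 in female vehicle livers, and 28.3 to 44.8 in male dexamethasone livers and 33.8 to 39.9 in male vehicle livers. Among these 3, Slc10a2, the ileal bile acid carrier that cholangiocytes also make and a gene singled out after its values were seen, rose by 2.18 ± 0.45 in females (adjusted p = 0.0109) and by 1.99 ± 0.45 in males (adjusted p = 0.0103). The other two did not pass the threshold, Fabp2 at -0.27 in females and -0.26 in males and Vil1 at -0.61 in females and -0.77 in males. The part of cell composition in the results for Nr0b2, Cyp27a1 and Nr1h4 was not tested.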

How the data were processed

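The authors quantified 12 single-colour arrays with Agilent Feature Extraction 9.5, per the submitters' processing notes. The deposited processed signal, an intensity per the file headers, was background-subtracted by that software, and the deposited series values equalled it for all 45018 spots. Here the deposited intensities were taken to log2, the 75th percentile of the array (control spots aside) was subtracted, outlier spots were left out and spots of a probe were averaged. A probe was kept when some group had it well above background on all of its 3 arrays (28840), 65.7 to 72.2% of spots being well above background on an array. The number of arrays limits the precision. Names came from the files, updated with a RefSeq table of GRCm38.p6 (22951 probes by accession, 6659 by symbol, 3109 by synonym, 8455 unchanged), and the brightest of a gene's probes was used. No exon annotation of mm7 was used here.

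The 19339 genes were fitted with limma 3.58.1 (R 4.3.3, data.table version 1.17.8, figures with matplotlib 3.10.9) as 4 group means over all 12 arrays, with 8 residual degrees of freedom, empirical Bayes moderation and Benjamini-Hochberg adjustment within each of 6 comparisons. The fit was tested on simulated data. The genes named are all 10 members, up to 8 of the other bile acid genes past the threshold in any comparison by the size of their averaged change, Fgfr4, Klb and Nr5a2, the 3 genes most alike Cyp7a1 and Nr0b2, and Fkbp5 and Tat. Of the genes most alike Nr0b2, 1 is not reported here. Hnf4a, Slco1a4, Cyp2c70, Slc10a2 and the single markers were named after their values were seen. Members and lists were chosen with earlier results of these data known. Same-numbered arrays of different groups had deviations correlated at -0.22 to 0.33, with 2 of 18 pairs over 0.1, so the numbers were not taken as pairs. The study's design text calls the 3 arrays of a group biological replicates. Alternatives were quantile normalization, normexp (offset 50), the dim-probe filter, slide or replicate as a block, array weights, a fit of only the arrays compared, and leaving out each array.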

Additional observations from a re-analysis of the deposited data

How the results depend on the processing

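Over all alternatives, no member's called change turned its sign. The Nr0b2 fall in males and on average, and the lower Cyp7b1 of females under both treatments, kept their calls in every alternative run.

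In females the members called came to 1 in place of 0 with array weights, with only the arrays compared and with normexp under a capped local background (its extreme values set to a high percentile), an alternative chosen after seeing the data, as were all counts of the other bile acid genes. In males they came to 2 in place of 1 with only probes on all 12 arrays, with array weights and with capped normexp. Under dexamethasone the sex calls came to 1 in place of 3 with normexp and with slide as a block. Under vehicle they came to 3 in place of 1 with array weights, and to 2 with only the arrays compared and with capped normexp. On average they came to 1 in place of 3 with normexp. Leaving out 1 array gave 0 to 1 in females, 1 to 2 in males, 0 to 0 for the difference of effects, 1 to 3 between the sexes under dexamethasone, 1 to 2 under vehicle and 3 to 4 on average.

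Calls among the 50 other bile acid genes came to 5 (normexp) and 13 (array weights) in place of 8 in females, to 6 (normexp) in place of 18 in males, to 14 (normexp) in place of 24 on average, and to 1 in place of 0 for the difference of effects with no filter on dim probes. Under dexamethasone they came to 2 (normexp), 1 (slide as a block) and 3 (only the arrays compared) in place of 9. Under vehicle they came to 8 (quantile), 1 (normexp), 2 (no filter), 9 (array weights and capped normexp) and 3 (only the arrays compared) in place of 5. Leaving out 1 array gave 6 to 10 in females, 10 to 22 in males, 4 to 11 and 1 to 6 between the sexes under dexamethasone and vehicle, and 20 to 26 on average.

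With the replicate number as a block the members called were 0 in females, 1 in males, 3 and 1 between the sexes and 3 on average, as without the block, and the other bile acid genes under vehicle came to 2. Over all genes the replicate block gave 1984 calls in place of 2644 in females, 3565 in place of 4359 in males, 703 in place of 1123 and 244 in place of 381 between the sexes under dexamethasone and vehicle, and 5837 in place of 6587 on average.

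Uncalled values near 0 turned their sign. With quantile normalization Abcb11 had -0.16 in females, -0.20 in males, -0.18 on average and 0.042 for the difference of effects, and in males Cyp8b1 had -0.049 and Slco1a1 had -0.072. With normexp Abcb11 had -0.20 in females, -0.092 in males and -0.15 on average, Cyp7b1 had -0.068 in females, and in males Cyp8b1 had -0.15 and Slco1a1 had -0.20. With capped normexp Abcb11 had -0.0060 in females, and in males Cyp8b1 had -0.0022 and Slco1a1 had -0.050. With slide as a block Nr1h4 had -0.034 for the difference of effects and Cyp27a1 had -0.089 between the sexes under dexamethasone, and with array weights that difference was -0.10.

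Leaving out 1 array at a time also turned uncalled values. In females they ran over -0.070 to 0.37 for Cyp7b1, -0.38 to 0.12 for Slc10a1, -1.19 to 0.0050 for Slco1a1 and -0.047 to 0.098 for Abcb11. In males they ran over -0.20 to 0.89 for Cyp7a1, -0.24 to 0.23 for Cyp8b1, -0.27 to 0.17 for Baat and -0.059 to 0.10 for Slco1a1. For the difference of effects they ran over -0.36 to 0.72 for Cyp7a1, -0.38 to 0.059 for Baat and -0.016 to 0.11 for Nr1h4. Between the sexes under dexamethasone they ran over -0.27 to 0.81 for Cyp7a1 and -0.081 to 0.28 for Cyp27a1. Between the sexes under vehicle they ran over -0.073 to 0.26 for Cyp7a1, -0.35 to 0.092 for Cyp27a1 and -0.10 to 0.39 for Nr0b2. On average they ran over -0.59 to 0.0077 for Slco1a1.

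The cause of these changes was not tested. Normexp moved the median over all genes to 0.24 in females and 0.26 in males and called 536 and 908 genes, and single spots of female dexamethasone 3 and male dexamethasone 1 reached local backgrounds of 20654 and 11368 intensity units. Array position follows treatment within each sex. With 3 arrays a group the 95% intervals were about ± 1 for Cyp7a1 and Slco1a1, before any adjustment for the number of genes. Smaller changes could thus be missed. Larger ones could too, as Slco1a1 between the sexes under vehicle was not called at -2.06 (adjusted p = 0.069).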
